A study of Mus musculus with 5 samples.

Results

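Heterotrimeric G protein subunit genes and regulator of G protein signalling (RGS) genes were compared between ribosome-bound RNA of the dentate gyrus and of the cerebral cortex. The members were the rows whose gene symbol is that of a G alpha, G beta or G gamma subunit or of a numbered RGS protein. They were 54 of the 32531 genes in the tables, made up of 16 G alpha, 5 G beta, 12 G gamma and 21 RGS genes. Both tissues came from adult, untreated mice that carried the Rbp4-Cre (KL100) driver together with the Rosa26-LSL-EGFP/Rpl10a allele, which makes a green fluorescent protein fused to a ribosomal protein wherever Cre has been active. Tagged polysomes were pulled down with antibodies against EGFP, a method called translating ribosome affinity purification (TRAP), giving 3 libraries from dentate gyrus and 2 from cerebral cortex. All 5 libraries are pulled-down fractions of dissected tissue, so they report the cells in which this driver was active plus whatever RNA the beads retained, and no input or untagged control was analysed here. The labels do not say whether the libraries of a tissue came from separate animals. The p-values therefore refer to the spread among the 5 samples, and that spread may be technical.

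A heterotrimeric G protein is an alpha subunit that binds GTP and a beta and gamma pair that stay together as 1 unit. A ligand-bound receptor makes the alpha subunit exchange GDP for GTP, after which alpha and beta-gamma act on separate effectors. Alpha subunits of the s class stimulate adenylyl cyclase, those of the i/o class inhibit it and those of the q/11 class activate phospholipase C beta. RGS proteins bind active alpha subunits and speed GTP hydrolysis, which ends the signal. In neurons these proteins carry the responses to receptors for GABA, glutamate, dopamine, serotonin, acetylcholine and neuropeptides.

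Gamma subunits are small proteins that differ in sequence and in the cells that use them. Of 10 tested gamma genes, 3 were called higher and 3 lower in dentate gyrus. Over all tested genes 10.5% were called higher and 10.8% lower. Each gamma subunit is anchored in the membrane by a lipid on a cysteine near its end. The last residue of the protein is known to select that lipid, with leucine taking a geranylgeranyl group and serine a farnesyl group. The ends of the coding sequences are shown for the 6 gamma genes that differed between the tissues and for a pair of the serine-ending type, to show which type these data hold. Each run is the last 15 coding bases with the stop codon, 5′ to 3′ on the coding strand, from GENCODE M21 transcripts on GRCm38, with the cysteine codon in capitals.
Gng2: TGCgccatcctttaa
Gng7: TGCataattctctag
Gng10: TGTgctctactttga
Gng3: TGTgcgctcctctga
Gng4: TGCaccatcctctaa
Gng13: TGCaccatcctatga
Gng11: TGTgtcatttcataa
Gngt2: TGTgtgctaagctga
The codon before the stop codes for leucine in the first 6 of these runs and for serine in the last 2. Of all 12 gamma genes, 9 end in leucine and 3, Gng11, Gngt1 and Gngt2, end in serine. The 3 serine-ending genes took 0.0179%, 0.00421% and 0% of the gamma subunit counts in dentate gyrus replicates 1, 2 and 3, against 0.0443% and 0.0287% in cortex replicates 1 and 2. Gng11 and Gngt1 had too few counts to be tested. Gngt2 had 16 counts in dentate gyrus and 36 in cortex, without overlap of the tissues. It was tested and not called (log2 fold change, dentate gyrus over cortex, -1.8, standard error 1.69, adjusted p = 0.521 by edgeR). A standard error of that size leaves a difference unresolved.

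Gene counts summed to between 22600963 and 36837908 per library, and 3 counts, taken as the floor of detection, correspond to 0.0827 to 0.133 counts per 1000000 (CPM) in single libraries. CPM are throughout relative to library sizes corrected with edgeR's TMM factors. The 5 granule cell markers Prox1, Dock10, Calb1, C1ql2 and Stxbp6 summed to 3786, 3351.5 and 3484 CPM in dentate gyrus against 247 and 242 CPM in cortex. The 5 layer 5 pyramidal neuron markers Fezf2, Etv1, Deptor, Parm1 and Rbp4 summed to 80.3, 215.5 and 101 CPM in dentate gyrus against 899 and 836.5 CPM in cortex. Dentate gyrus replicate 2 thus had the highest layer 5 marker level of its tissue. Cortex replicate 1 stood apart by genes of cerebellar Purkinje cells, with Car8 at 411 CPM and Pcp2 at 19.7 CPM, against 1.43 and 0.123 CPM in cortex replicate 2. The 8 activity-regulated genes, headed by Egr1, summed to 134, 139 and 93.6 CPM in dentate gyrus against 1656 and 1301 CPM in cortex, and all 8 were lower in dentate gyrus. The 8 interneuron markers summed to 222, 186 and 207 CPM in dentate gyrus against 907 and 897 CPM in cortex. Sst made up most of the cortex sum, at 699.5 and 641 CPM, and 5 of the 8 were called lower, but Gad1 was called higher in dentate gyrus, with 71.6, 57.2 and 64.7 CPM against 26.6 and 41.0 CPM in cortex. The summed astrocyte, oligodendrocyte, striatal and mural and endothelial markers overlapped between the tissues. Single members could still differ: Aldh1l1, of 5 astrocyte markers, was called lower in dentate gyrus, at 0.0537 against 8.22 CPM on average. Of 6 tested striatal markers 3 were called lower and 0 higher. The 5 CA2 pyramidal neuron markers summed to 3423, 2284 and 2580 CPM in dentate gyrus against 725 and 656.5 CPM in cortex. Most of that was Fam163b, the 1 of the 5 that was called, and it was higher in dentate gyrus. The part of these differences in the results was not tested, and in bulk RNA a smaller share of cells of a type cannot be told apart from less RNA per cell.

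Of the 54 members, 42 had enough counts to be tested with edgeR's quasi-likelihood test, and 19 of them differed at a Benjamini-Hochberg adjusted p under 0.05. That is 45.2% of the tested members, against 21.3% of all 14136 genes tested. In the dentate gyrus 6 members were higher and 13 were lower, where 10.5% of all genes were higher and 10.8% were lower. The libraries of the tissues did not overlap for 28 of the 42, against 50.1% of all genes tested. All 19 called members were among those 28. The median log2 fold change, dentate gyrus over cortex, was -0.50 over the 42 members and 0.02 over all genes tested. By family, 2 of 11 tested G alpha genes were higher and 4 lower, none of 4 G beta genes was higher and 1 was lower (0 and 1 at an unadjusted p under 0.05, and 0 and 1 with DESeq2 and limma voom), 3 of 10 G gamma genes were higher and 3 lower, and 1 of 17 RGS genes was higher and 5 lower. Without cortex replicate 1 the number called lower was 8, and without that library and dentate gyrus replicate 2 it was 7.

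**Figure D1:**
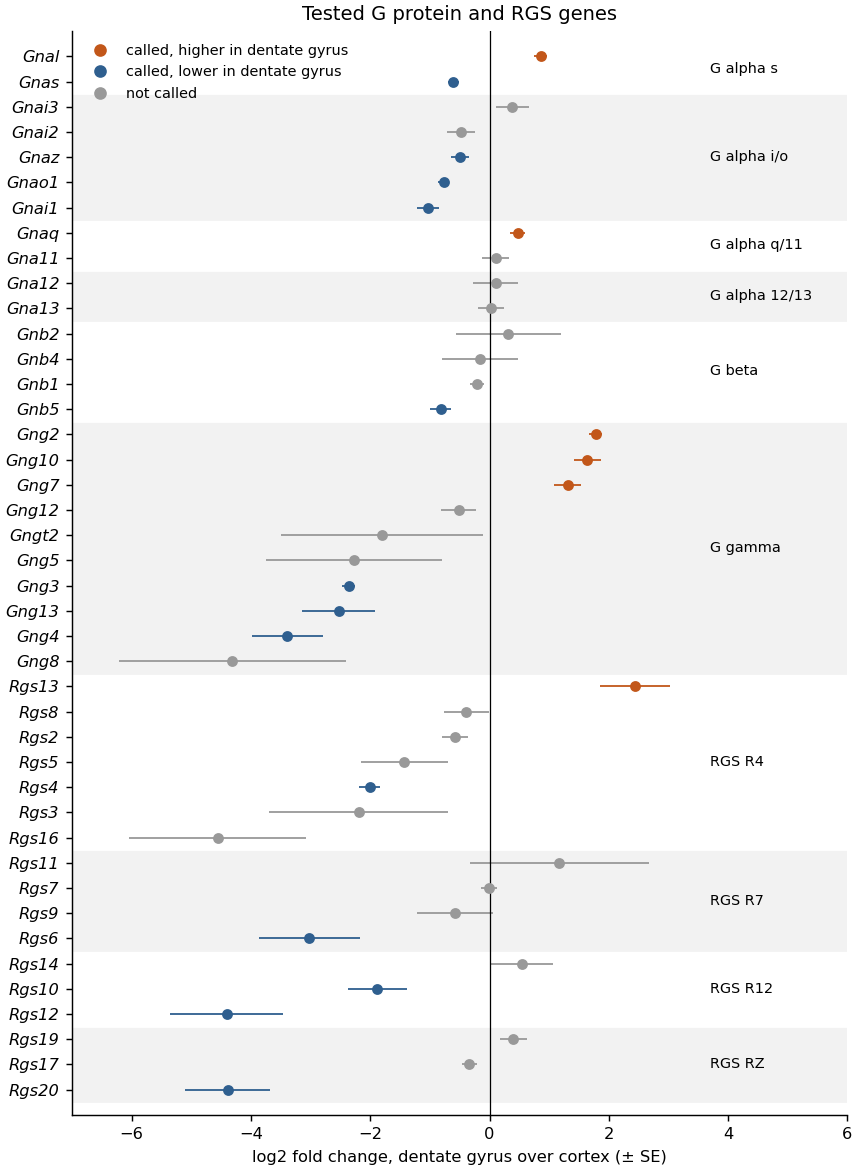
Log2 fold change, dentate gyrus over cortex, of the 42 tested members with its standard error (SE), grouped by subfamily; orange marks the 6 called higher in dentate gyrus, blue the 13 called lower and grey the members that were not called. Gng2 and Gng10 lie to the right and Gng3 and Gng4 to the left within the same subfamily.

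Seen per length of all exons, the most abundant members of dentate gyrus were Gng2 at 390 ± 17 CPM per kb, Gnai1 at 231 ± 66.9, Gnb1 at 185 ± 14.4 and Gnas at 158 ± 8.74 (mean ± SD, n = 3). In cortex they were Gng3 at 557 ± 9.64 CPM per kb, Gnai1 at 469.9 ± 48.8, Gnas at 240.4 ± 8.92 and Rgs4 at 227 ± 17.5 (n = 2). Libraries of Gnai1 and Gnb1 overlapped in dentate gyrus, so their order there is not fixed, whereas Gng2 lay above and Gnas below both. In cortex Gnas, Rgs4, Gnao1 at 216 ± 15.6 and Gnb1 at 215 ± 6.79 CPM per kb each overlapped with their neighbour in the order, and Gng3 and Gnai1 stood clear of them. Divided by the longest transcript in place of all exons, Gnas stood first in both tissues, at 447 CPM per kb in dentate gyrus and 681 CPM per kb in cortex, and Gng2 was level with it in dentate gyrus at 447.0. Gng2 and Gng3 remained the highest gamma subunits of dentate gyrus and of cortex under both lengths.

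**Figure D2:**
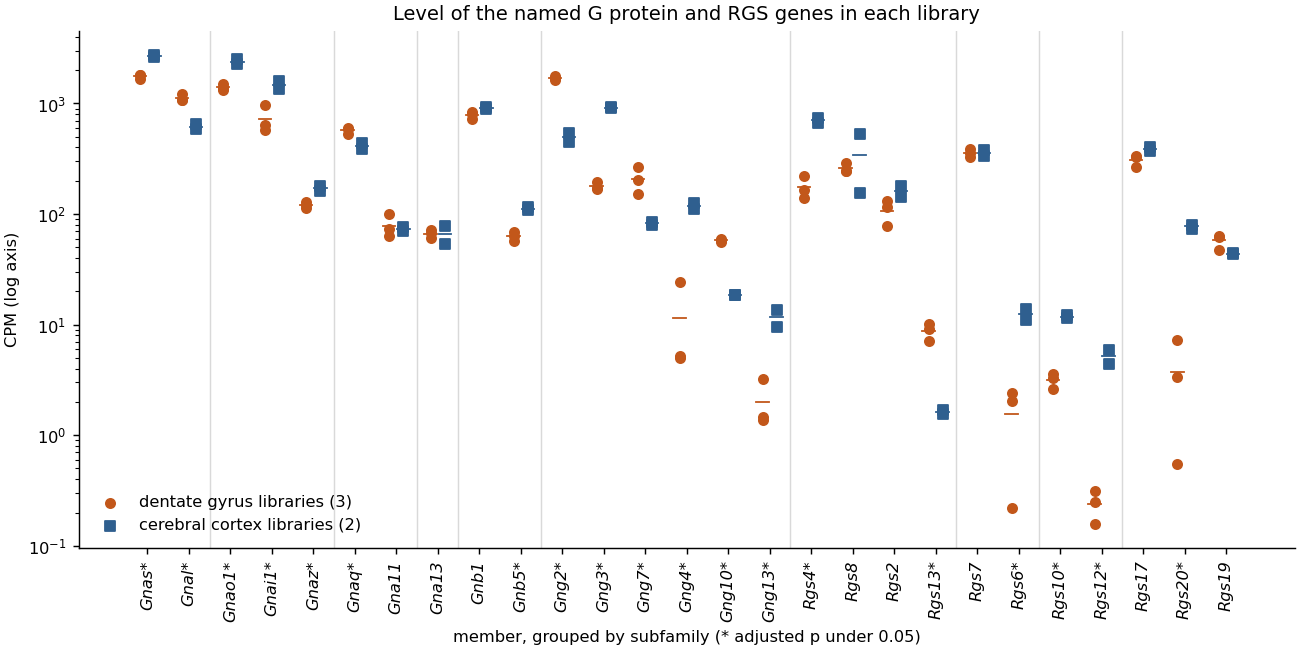
CPM on a log axis of the 27 members that were called or reached a mean of 50 CPM in either tissue, with orange circles for the 3 dentate gyrus libraries, blue squares for the 2 cortex libraries and short lines for the means; a star marks the called members. Gng2 lies above Gng3 in every dentate gyrus library and below it in both cortex libraries.

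The stimulatory alpha subunits moved in opposite directions. Gnas encodes G alpha s, the general activator of adenylyl cyclase, and Gnal encodes G alpha olf, which takes its place in olfactory neurons and in striatal neurons, where it couples to dopamine and adenosine receptors. Gnal had 1219, 1067 and 1074.5 CPM in dentate gyrus against 586 and 647 CPM in cortex. Gnas had 1819, 1826 and 1653 CPM in dentate gyrus against 2760 and 2619 CPM in cortex (chromosome 2, 174284320 to 174346744, plus strand, GRCm38). All 3 dentate gyrus libraries were above both cortex libraries for Gnal and below both for Gnas. The log2 fold change was 0.86 for Gnal (SE 0.11, adjusted p = 0.000457 by edgeR) and -0.61 for Gnas (SE 0.09, adjusted p = 0.000806). Per length of all exons, Gnal made up 40.2%, 36.9% and 39.4% of the pair in dentate gyrus against 17.5% and 19.8% in cortex. By the longest transcript its mean share was 30.4% in dentate gyrus against 13.6% in cortex. The 7 striatal markers found in the tables include dopamine receptor genes. They summed to 145, 120.4 and 134 CPM in dentate gyrus against 121 and 201 CPM in cortex, and overlapped between the tissues. Of the 6 tested, 3 were called lower in dentate gyrus and 0 higher. The Gnas symbol does not separate the several promoters of this imprinted locus, and its change was not called against a 1.5-fold null (adjusted p = 0.515).

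Of the 5 inhibitory class genes, all tested, 3 were called lower in dentate gyrus, Gnai1, Gnao1 and Gnaz, where 10.8% of all tested genes were. None was higher by edgeR, DESeq2 or limma voom, also at an unadjusted p under 0.05. Gnai1 encodes the neuronal G alpha i1 subunit, and it had 571, 963 and 637 CPM in dentate gyrus against 1581 and 1365 CPM in cortex (chromosome 5, 18265135 to 18360355, minus strand). Dentate gyrus replicate 2 lay between the other dentate gyrus libraries and the cortex. That library also had the highest layer 5 marker sum of its tissue, whose part in the Gnai1 level was not tested. Gnao1 encodes G alpha o, the most abundant alpha subunit protein of brain, and it had 1389, 1498 and 1312 CPM in dentate gyrus against 2505 and 2261 CPM in cortex. Gnaz encodes G alpha z, a slowly hydrolysing inhibitory subunit that pertussis toxin does not modify, and it had 129, 113 and 122 CPM against 179 and 162 CPM. None of the 3 genes overlapped between tissues. The log2 fold changes were -1.03 for Gnai1 (SE 0.19, adjusted p = 0.00428), -0.77 for Gnao1 (SE 0.09, adjusted p = 0.000347) and -0.49 for Gnaz (SE 0.15, adjusted p = 0.042). Gnai2 and Gnai3, widely expressed paralogues, were low and not called, with means of 33.4 and 37.7 CPM in dentate gyrus against 46.5 and 28.9 CPM in cortex. The Gnaz call was lost without dentate gyrus replicate 2 (adjusted p = 0.0922), dentate gyrus replicate 3 (0.0902), cortex replicate 1 (0.219) or cortex replicate 2 (0.0812). Against a 1.5-fold null the Gnai1 and Gnao1 changes had adjusted p = 0.0544 and 0.0827.

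Which inhibitory subunit leads depends on the length used. Per length of all exons, Gnai1 made up 50.2%, 62.1% and 53.9% of the i/o class in dentate gyrus against 62.8% and 61.8% in cortex, with Gnao1 next at 34.6%, 27.4% and 31.5% against 28.2% and 29.0%. By the longest transcript the dentate gyrus means were 46.8% for Gnao1 and 41.8% for Gnai1, so their order turned round there, while in cortex Gnai1 stayed ahead at 47.9% against 44.1%. The ratio of Gnai1 to Gnao1 overlapped between the tissues.

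Among q/11 subunits, which activate phospholipase C beta, Gnaq rose slightly and Gna11 gave no call. Gnaq had 595, 529.6 and 594 CPM in dentate gyrus against 389 and 435 CPM in cortex, with no overlap and a log2 fold change of 0.47 (SE 0.12, adjusted p = 0.0175 by edgeR). Gna11 had 100, 72.8 and 63.5 CPM in dentate gyrus against 70.5 and 76.1 CPM in cortex (log2 0.10, SE 0.23, adjusted p = 0.80). Gnaq made up 79.8%, 82.8% and 86.1% of the class per length in dentate gyrus against 78.4% and 79.1% in cortex. The Gnaq call was lost without dentate gyrus replicate 3 (adjusted p = 0.0634), cortex replicate 1 (0.122) or cortex replicate 2 (0.0533). Gna13, of the separate 12/13 class, had 60.4, 67.6 and 72.1 CPM against 53.3 and 77.4 CPM, with the tissues overlapping (log2 0.03, SE 0.22, adjusted p = 0.947), and its paralogue Gna12 averaged 13.9 CPM over the dentate gyrus libraries and 13 CPM over the cortex ones. A p that misses the threshold does not show that a gene is equal in both tissues, and the SE gives the resolution.

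Of the beta subunits, Gnb1 carried most of the RNA. Gnb1 had 840.3, 811 and 722 CPM in dentate gyrus against 895 and 936 CPM in cortex, without overlap but also without a call (log2 -0.21, SE 0.11, adjusted p = 0.198 by edgeR). It made up 90.2%, 90.6% and 87.8% of beta subunit RNA per length in dentate gyrus against 84.7% and 85.9% in cortex. Gnb5 encodes the divergent beta subunit that pairs with R7 class RGS proteins in place of a gamma subunit and is needed for their stability. Gnb5 had 63.6, 57.5 and 68.2 CPM in dentate gyrus against 115 and 108 CPM in cortex (chromosome 9, 75306288 to 75345876, plus strand). Every dentate gyrus library was below both cortex libraries, and the log2 fold change was -0.82 (SE 0.18, adjusted p = 0.00871). Without cortex replicate 1 the Gnb5 adjusted p was 0.0679. Gnb2 and Gnb4 were under 11 CPM in every library, and Gnb3, the subunit of cone photoreceptors and taste cells, had 0 counts in all 5 libraries.

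The gamma subunits showed an exchange of the leading gene between tissues. Gng2, a widely expressed brain gamma subunit, was higher in dentate gyrus with 1783.5, 1635 and 1712.5 CPM against 451 and 544 CPM in cortex (chromosome 14, 19872559 to 19977627, minus strand). Gng3, a gamma subunit found mainly in neurons, was lower with 169.7, 193 and 170.3 CPM in dentate gyrus against 926 and 904 CPM in cortex (chromosome 19, 8836933 to 8839194, minus strand). The tissues were far apart for both genes, and replicates within a tissue lay close together. The log2 fold change was 1.78 for Gng2 (SE 0.11, adjusted p = 7.73e-06 by edgeR) and -2.36 for Gng3 (SE 0.11, adjusted p = 1.64e-06), which are 3.44-fold higher and 5.15-fold lower. Per length, Gng2 took 64.3%, 62.5% and 65.0% of gamma subunit RNA in dentate gyrus against 13.3% and 16.2% in cortex, and Gng3 took 16.3%, 19.7% and 17.3% against 73.2% and 71.8%. The ratio of Gng3 to Gng2 was 0.254, 0.316 and 0.266 in the dentate gyrus libraries and 5.49 and 4.44 in the cortex libraries. By the longest transcript Gng2 took 65.9% in dentate gyrus against 16.4% in cortex, so the exchange was seen with both lengths. Shares are a description here, because 3 against 2 libraries give 10 assignments and an exact permutation test cannot reach 0.05. With the two-sided p taken as 2 times the smaller tail, it cannot go below 0.2. Exons of Bscl2 on the opposite strand cover 24.2% of Gng3, and Bscl2 was at 10.4 to 14.3 CPM in dentate gyrus against 28.6 and 24.6 CPM in cortex, far below Gng3. The long noncoding gene Gm48283 on the opposite strand covers 20.4% of the Gng2 exon bases and is not among the genes counted here. As the strand setting is not known, its RNA in the shared bases may be included in the Gng2 counts.

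**Figure D3:**
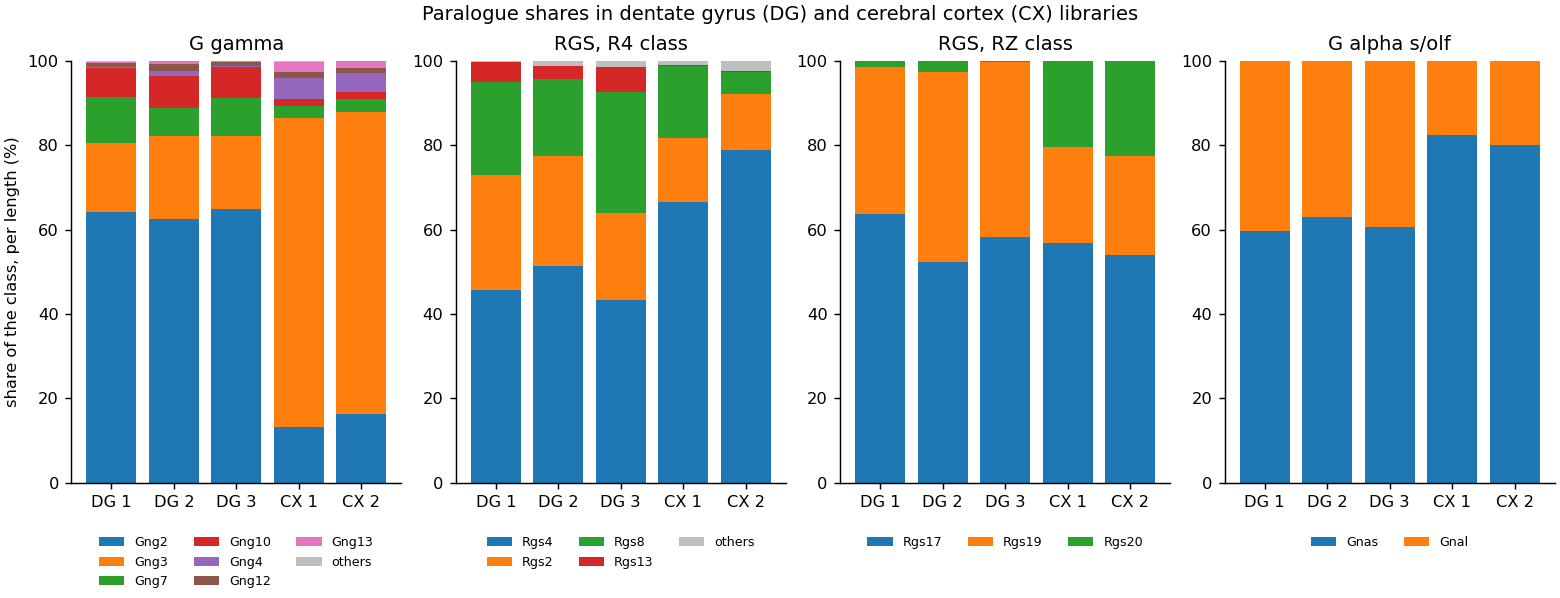
Share of each paralogue, in percent of its class per length of all exons, in dentate gyrus (DG) replicates 1 to 3 and cerebral cortex (CX) replicates 1 and 2, for G gamma, the R4 and RZ classes of RGS genes and the s/olf alpha subunits. Gng2 fills over 60% of the G gamma bars in dentate gyrus and under 20% in cortex, where Gng3 fills over 70%.

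Gng7 and Gng10 were also higher in dentate gyrus. Gng7, which pairs with G alpha olf in striatal neurons, had 264, 151 and 203 CPM in dentate gyrus against 80.4 and 85.4 CPM in cortex (log2 1.31, SE 0.23, adjusted p = 0.00264 by edgeR). Gng10, a widely expressed and distant gamma subunit, had 55.6, 59.7 and 58.1 CPM against 18.6 and 18.4 CPM (log2 1.64, SE 0.23, adjusted p = 0.000854). The lowest dentate gyrus value was above the highest cortex value for both genes. Gng7 and Gnal, known as partners in striatum, were thus both higher in dentate gyrus. The gene model Gm20503 covers 72.0% of the Gng10 exon bases on the same strand and is not among the genes counted here. RNA of that model in the shared bases may therefore be included in the Gng10 counts.

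Gng4 and Gng13 were lower in dentate gyrus. Gng4, a brain gamma subunit, had 4.96, 24.1 and 5.20 CPM in dentate gyrus against 126 and 112 CPM in cortex (chromosome 13, 13784059 to 13827896, plus strand). Dentate gyrus replicate 2 was the highest of its tissue and still below both cortex libraries. The log2 fold change was -3.39 (SE 0.60, adjusted p = 0.00304), and it was -4.56 without dentate gyrus replicate 2. The layer 5 marker sum was also highest in that library, and its part in the Gng4 level was not tested. Gng13, which serves taste cells, olfactory neurons and retinal bipolar cells, had 1.46, 3.20 and 1.37 CPM in dentate gyrus against 13.7 and 9.55 CPM in cortex (log2 -2.53, SE 0.61, adjusted p = 0.0149). The Gng13 call was lost without cortex replicate 1, where the log2 fold change was -2.25. That library had the higher Gng13 value of the cortex and also stood apart by the Purkinje cell genes Car8 and Pcp2. The part of Purkinje cell RNA in the Gng13 values was not tested. Opposite-strand exons of Chtf18 cover 51.6% of Gng13, and Chtf18 had at most 1.37 CPM in any library.

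The R4 class holds the small RGS proteins that act on i/o and q subunits with little besides the RGS domain. Rgs4, the leading one in forebrain neurons, had 164, 221 and 139.9 CPM in dentate gyrus against 665 and 742 CPM in cortex (chromosome 1, 169741477 to 169747642, minus strand). All 3 dentate gyrus libraries were well below both cortex libraries, with replicate 2 the highest of the 3. The log2 fold change was -2.01 (SE 0.18, adjusted p = 5.01e-05 by edgeR), a 4.02-fold lower level. Rgs4 took 45.7%, 51.5% and 43.4% of R4 RNA per length in dentate gyrus against 66.6% and 79.0% in cortex. The change in Rgs4 stood beside lower sums of layer 5, interneuron and activity-regulated markers, whose part in it was not tested.

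Rgs2, which is selective for q subunits and is induced by neuronal activity, had 115, 130.4 and 77.4 CPM in dentate gyrus against 178 and 144 CPM in cortex. The tissues did not overlap, and the log2 fold change of -0.58 (SE 0.22) was not called by edgeR (adjusted p = 0.096). DESeq2 (adjusted p = 0.0486), limma voom (0.037), the same edgeR test with no filter (0.0129) or a stricter one (0.0368), and the fit without dentate gyrus replicate 2 (0.0441) called it lower. The activity-regulated marker sum was lower in dentate gyrus as well, and its part in the Rgs2 values was not tested. Rgs13, known from germinal centre B cells and mast cells, was the RGS gene that was higher in dentate gyrus, with 9.10, 7.15 and 10.2 CPM against 1.57 and 1.68 CPM in cortex (log2 2.44, SE 0.59, adjusted p = 0.0152). Those levels are low but rest on 752 counts in dentate gyrus and 96 in cortex. The Rgs13 call was lost without dentate gyrus replicate 3 (adjusted p = 0.0588), cortex replicate 1 (0.0746) or cortex replicate 2 (0.0728). The 5 microglial markers summed to 0.91, 4.22 and 5.28 CPM in dentate gyrus against 8.21 and 8.73 CPM in cortex, a sum to which Cx3cr1 gave most in cortex, while P2ry12 averaged 2.57 CPM over dentate gyrus libraries and 1.06 CPM over cortex libraries (not called). The part of immune cell RNA in the Rgs13 values was not tested.

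Rgs8 gave no stable answer. This R4 member is prominent in cerebellar Purkinje cells, and it had 247, 244 and 289 CPM in dentate gyrus against 528 and 155 CPM in cortex. The cortex libraries lay on both sides of the dentate gyrus, and the log2 fold change of -0.39 (SE 0.38) was not called (adjusted p = 0.527 by edgeR). Without cortex replicate 1 it was higher in dentate gyrus, at 0.75 (adjusted p = 0.0303), and without cortex replicate 2 it was lower, at -1.06 (adjusted p = 0.00257). Cortex replicate 1 is the library with 411 CPM of Car8 and 19.7 CPM of Pcp2, and the 5 Purkinje cell markers, of which Calb1 and Itpr1 are also made by forebrain neurons, summed to 425, 439.7 and 439 CPM in dentate gyrus against 1358 and 1001 CPM in cortex. Their part in the Rgs8 value was not tested.

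**Figure D4:**
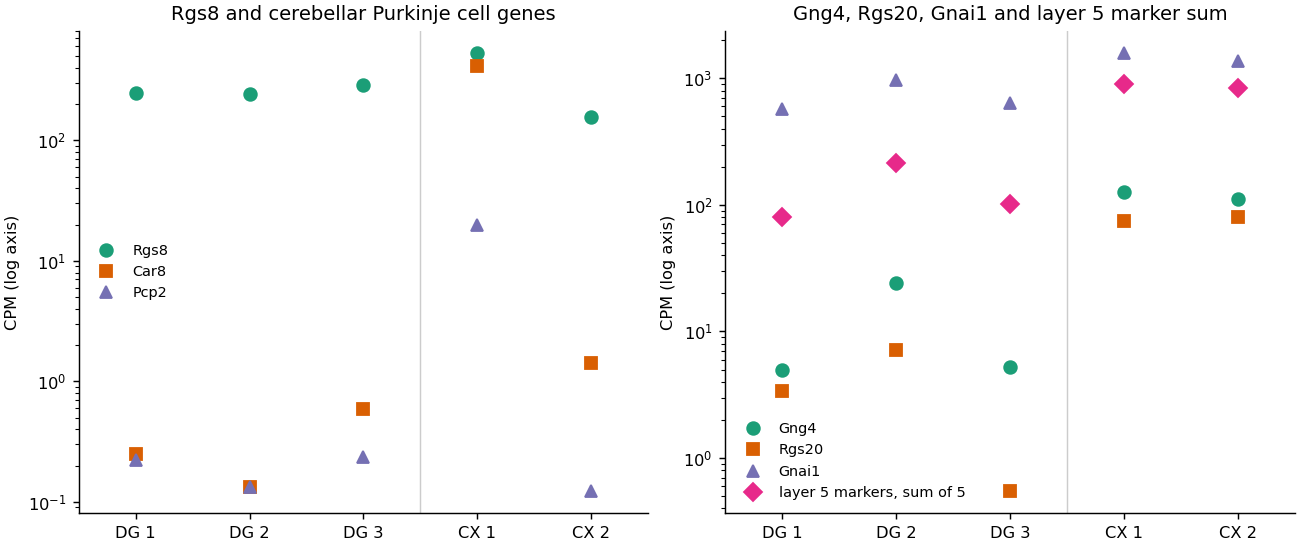
CPM on a log axis in dentate gyrus (DG) replicates 1 to 3 and cerebral cortex (CX) replicates 1 and 2, for Rgs8 with the Purkinje cell genes Car8 and Pcp2 (left), and for Gng4, Rgs20, Gnai1 and the summed layer 5 markers (right). Rgs8, Car8 and Pcp2 are highest in cortex replicate 1, and among dentate gyrus libraries the right-hand genes are highest in replicate 2.

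The remaining R4 genes were low. Rgs16 had 0, 0.0444 and 0.626 CPM in dentate gyrus against 3.36 and 7.26 CPM in cortex, without overlap, and edgeR did not call it (log2 -4.56, SE 1.48, adjusted p = 0.0548). DESeq2 (adjusted p = 0.00873) and limma voom (0.0265) did, as did edgeR without the filter (0.00183) and without dentate gyrus replicate 3 (0.0081); it is named after its values were seen. Rgs5, a marker of pericytes, had 1.24, 6.92 and 5.05 CPM against 6.35 and 17.4 CPM and was not called. The 8 mural and endothelial markers summed to 11.3, 24.9 and 11.2 CPM in dentate gyrus against 13.5 and 9.59 CPM in cortex.

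The R7 class works as a complex with Gnb5 and favours i/o subunits. Rgs7 made up almost all of it, and it had 388, 357 and 326.5 CPM in dentate gyrus against 381 and 338 CPM in cortex, fully overlapping, with a log2 fold change of -0.01 (SE 0.13, adjusted p = 0.968 by edgeR). Its share of the class per length was 98.9%, 98.3% and 98.0% in dentate gyrus against 97% and 95.6% in cortex. Rgs6 was lower in dentate gyrus, with 0.221, 2.04 and 2.39 CPM against 13.9 and 11 CPM (log2 -3.02, SE 0.84, adjusted p = 0.0292). The Rgs6 call was lost without cortex replicate 1 (adjusted p = 0.135) or cortex replicate 2 (0.0829). Rgs9, the striatal and photoreceptor member, and Rgs11, the retinal bipolar cell member, were under 9 CPM in every library and not called.

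Partners of the R7 complex changed in both directions. Rgs7bp encodes the palmitoylated protein that holds R7 complexes at the membrane, and it had 1868, 1539 and 1699 CPM in dentate gyrus against 949.7 and 789 CPM in cortex (log2 0.97, SE 0.12, adjusted p = 0.000381). Gpr158 encodes an orphan receptor that binds RGS7, and it had 193, 254 and 172 CPM in dentate gyrus against 337 and 396 CPM in cortex (log2 -0.83, SE 0.17, adjusted p = 0.00752). Without cortex replicate 2 the Gpr158 adjusted p was 0.0544. Rgs7 thus overlapped between tissues while Gnb5 and Gpr158 were lower and Rgs7bp was higher in dentate gyrus.

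The RZ class favours G alpha z and other inhibitory subunits. Rgs20, a brain-enriched member, was lower in dentate gyrus with 3.39, 7.19 and 0.548 CPM against 74.0 and 80.4 CPM in cortex (chromosome 1, 4909576 to 5070285, minus strand). Both cortex libraries were far above every dentate gyrus library, and dentate gyrus replicate 2 was again the highest of its tissue. The log2 fold change was -4.39 (SE 0.71, adjusted p = 0.0018 by edgeR), and it was -5.26 without dentate gyrus replicate 2. Rgs17 and Rgs19, the paralogues that share this class, were not called. Rgs17 had 326, 269 and 332 CPM in dentate gyrus against 404 and 375 CPM in cortex (log2 -0.34, SE 0.13, adjusted p = 0.104), and the stricter filter on low counts brought its adjusted p to 0.0406. Rgs19 had 47.8, 62.1 and 63.6 CPM against 43.8 and 44.1 CPM (log2 0.40, SE 0.22, adjusted p = 0.258). Neither gene overlapped between the tissues. Rgs20 made up 1.30%, 2.74% and 0.188% of the class per length in dentate gyrus against 20.3% and 22.6% in cortex. By the longest transcript its mean share was 2.29% against 32.2%.

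The R12 class joins an RGS domain to other signalling domains in Rgs12 and Rgs14, and holds the short Rgs10. Rgs12, which also carries a GoLoco motif that holds inactive alpha i, had 0.248, 0.311 and 0.157 CPM in dentate gyrus against 4.42 and 5.90 CPM in cortex (log2 -4.41, SE 0.94, adjusted p = 0.00837 by edgeR). Its dentate gyrus values rest on 20 counts and its cortex values on 299. Rgs10, which is abundant in microglia and also found in neurons, had 3.61, 2.62 and 3.29 CPM in dentate gyrus against 12.1 and 11.4 CPM in cortex (log2 -1.88, SE 0.50, adjusted p = 0.0239). Neither gene overlapped between the tissues. The microglial marker sum was lower in dentate gyrus too, but none of the 3 tested markers was called by edgeR (1 at an unadjusted p under 0.05), and DESeq2 and limma voom each called 1, Cx3cr1. Cx3cr1 had 0, 1.11 and 0.313 CPM in dentate gyrus against 5.84 and 5.66 CPM in cortex, P2ry12 had 0.607, 2.75 and 4.34 CPM against 1.34 and 0.779 CPM, and C1qa had 0 counts in all 5 libraries. The part of microglial RNA in the Rgs10 change was not tested. The Rgs12 call was lost without cortex replicate 2 (adjusted p = 0.0833). The Rgs10 call was lost without dentate gyrus replicate 2 (adjusted p = 0.0548), dentate gyrus replicate 3 (0.053), cortex replicate 1 (0.132) or cortex replicate 2 (0.108). Rgs14, known from CA2 pyramidal neurons of the hippocampus, had 7.80, 6.88 and 10.3 CPM against 7.12 and 4.18 CPM and was not called.

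Several members were not detected or nearly so. Gna15, found in blood cells, Gnat2, the alpha subunit of cone transducin, Gnb3 and Rgs21, known from taste cells, had 0 counts in all 5 libraries. A count of 0 allows a level of up to 0.0356 CPM in the pooled dentate gyrus libraries and 0.0504 CPM in the pooled cortex libraries, for counting error only. The other 8 members that were not tested, Gna14, Gnat1, Gnat3, Gng11, Gngt1, Rgs1, Rgs18 and Rgs22, had at most 3 counts over the dentate gyrus libraries together and at most 30 over the cortex libraries together. Rgs1 had its 30 cortex counts in cortex replicate 1 alone. A further 15 tested members were neither called nor reached a mean of 50 CPM, with means of 0.0296 to 47.3 CPM. Among them Gng5, of whose longest transcript 17.1% is near-identical to other genes, was at 0.11, 0.0444 and 0.90 CPM in dentate gyrus against 2.59 and 0.82 CPM in cortex, and its count is uncertain because shared reads were set aside.

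Effectors and partners of these subunits were called in both directions, and their counts stand beside 10.5% of all tested genes called higher and 10.8% called lower. Of 4 phospholipase C beta genes, the effectors of q/11 subunits, 1 was lower in dentate gyrus by edgeR and 2 by DESeq2 and limma voom. None was higher with any of these tools, also at an unadjusted p under 0.05. Plcb4 had 16.3, 20.7 and 22.5 CPM in dentate gyrus against 193 and 198 CPM in cortex (log2 -3.30, SE 0.20, adjusted p = 5.67e-06 by edgeR), and Plcb1, the main form of hippocampus and cortex, had 652, 659 and 697 CPM against 807 and 756 CPM without a call (adjusted p = 0.154). Of 8 tested adenylyl cyclases 2 were higher and 1 was lower. Adcy1, a calmodulin-stimulated form, had 1886.5, 1438 and 1750.1 CPM in dentate gyrus against 805 and 941 CPM in cortex (log2 0.95, SE 0.13, adjusted p = 0.000706). Adcy9 had 147, 135.0 and 153 CPM against 83.7 and 80.6 CPM (log2 0.82, SE 0.16, adjusted p = 0.00526). Adcy5, the main cyclase downstream of G alpha olf in striatum, had 24.1, 29.3 and 32.1 CPM in dentate gyrus against 48.9 and 72.3 CPM in cortex (log2 -1.09, SE 0.26, adjusted p = 0.0145), so it went the other way from Gnal and Gng7. Without cortex replicate 2 the Adcy5 adjusted p was 0.156.

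Potassium channels opened by beta-gamma, the GIRK channels, were called higher in dentate gyrus in 2 of 3 tested genes, where 10.5% of all tested genes were. Kcnj6 had 257, 240.0 and 289 CPM in dentate gyrus against 57.2 and 73.3 CPM in cortex (log2 2.01, SE 0.17, adjusted p = 4.23e-05 by edgeR). Kcnj3 had 317, 277.5 and 275 CPM in dentate gyrus against 155 and 126 CPM in cortex (log2 1.05, SE 0.15, adjusted p = 0.000946). The dentate gyrus was above cortex in every library for both channel genes. Of 7 tested receptor kinases and arrestins 1 was lower, Arrb1, which encodes beta-arrestin 1, with 141, 119 and 116 CPM against 233 and 282 CPM (log2 -1.04, SE 0.16, adjusted p = 0.00116). Of 5 tested proteins with GoLoco motifs or other receptor-independent activators of G protein signalling 1 was lower, Rap1gap, with 10.2, 6.44 and 6.73 CPM against 29.3 and 21.0 CPM (log2 -1.69, SE 0.38, adjusted p = 0.011). Without cortex replicate 1 the Rap1gap adjusted p was 0.115. None of 8 other RGS-domain proteins and none of 2 tested exchange factors and chaperones was called by edgeR, DESeq2 or limma voom. At an unadjusted p under 0.05, edgeR counted 1 of the RGS-domain proteins as higher and 0 of the exchange factors and chaperones.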

How the data were processed

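Tagged polysomes of 3 dentate gyrus and 2 cortex samples were purified and their RNA sequenced. The authors deposited raw read counts per gene symbol for each library. Per the submitters' processing notes, STAR 2.0.0e, HTSeq and the mm10 build were used; these sources give no HTSeq version, annotation or strand setting, so overlapping and antisense genes may share counts. Summary rows without a gene were dropped before library sizes were taken; unassigned reads were 10.6% to 14.8% and reads that were not unique 25.0% to 31.8% of counted reads, unassigned reads being more frequent in dentate gyrus and not unique reads in cortex.

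From the counts, edgeR 4.0.16 in R 4.3.3 was run with TMM scaling, filterByExpr and the quasi-likelihood test on tissue alone, dentate gyrus over cortex, for 14136 genes, with Benjamini-Hochberg adjustment over all of them; all adjusted p-values come from it unless another tool is named. The edgeR fit was also run on counts simulated from its own fitted means and dispersions, with 200 genes changed. Because those counts follow the fitted model, that run cannot show that the calls in the real data are right. DESeq2 1.42.0, limma 3.58.1 voom, other scalings and filters, robust dispersion, a replicate block, a 1.5-fold null, removal of the ribosomal RNA gene Rn45s and leaving out libraries were alternatives. Shares per length use union exon lengths of GENCODE M21 (GRCm38, the same build as mm10), from CPM per kb. Every member with an adjusted p under 0.05 or a mean of at least 50 CPM in either tissue is named, with up to 4 called genes of each list of partners; further members are named to complete their class, after their values were seen. The members and lists were chosen with earlier results of these data known. Library counts within a tissue differed by more than sampling noise. The labels do not say that same-numbered samples of different tissues belong together, so numbers were not taken as pairs. Deviations of same-numbered samples from their tissue means had correlations of 0 and -0.02 across genes. With 2 cortex libraries the cortex deviations mirror each other, so this check cannot decide whether the samples are pairs. Figures were drawn with matplotlib 3.10.9.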

Additional observations from a re-analysis of the deposited data

How the results depend on the processing

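Among the 17 alternatives, 8 of the 19 called members kept call and direction in every one, namely Gng2, Gng3, Gng4, Gng7, Gng10, Gnal, Rgs4 and Rgs20. The other 11 lost the call in at least 1 alternative but kept their direction. The number of members called lower in dentate gyrus was 13; it was 8 to 13 when single libraries were left out (lowest when cortex replicate 1 was), 7 when dentate gyrus replicate 2 was dropped with cortex replicate 1, and 6 against a 1.5-fold null, a test that asks for larger changes. The number called higher was 6, and 4 to 6 without single libraries. With the replicate block, which labels do not justify as a pairing, 4 members were called higher and 10 lower, and 2237 of all genes in place of 3009.

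Signs turned in members that were not called. For Gna11 the log2 value was -0.12 without dentate gyrus replicate 1, the lowest of a range up to 0.22 when single libraries were left out. For Gna13 it was -0.01 with upper quartile factors and with the replicate block, -0.02 with the stricter filter, -0.04 without dentate gyrus replicate 3, -0.21 without cortex replicate 1 (up to 0.29 without cortex replicate 2) and -0.22 with both libraries left out. For Rgs7 it was 0.05 with the replicate block, 0.03 without dentate gyrus replicate 3, 0.08 without cortex replicate 1 (down to -0.13 without cortex replicate 2) and 0.09 with both left out. For Rgs8 it was 0.75 without cortex replicate 1 (down to -1.06 without cortex replicate 2) and 0.80 with both left out. The cause was not tested. Members under about 1 CPM rest on few counts, which limits what their values can show.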

Other observations

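Several members lie next to each other in the genome (GENCODE M21, GRCm38). On chromosome 1, Rgs2, Rgs13, Rgs1, Rgs21 and Rgs18 lie between 143999338 and 144775435. Of these, Rgs13 was higher in dentate gyrus, Rgs2 was not called, with a log2 value of -0.58, and the other 3 had at most 30 counts in a tissue. Further along chromosome 1, Rgs8 (153653025 to 153700323) and Rgs16 (153740349 to 153745468) adjoin each other, as do Rgs5 (169655501 to 169695813) and Rgs4 (169741477 to 169747642). Rgs4 was called lower and Rgs5, which averaged 4.40 CPM over dentate gyrus libraries and 11.9 CPM over cortex libraries, was not called.

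The 3 Gnai genes lie beside transducin-type genes, Gnai1 beside Gnat3 on chromosome 5, Gnai2 beside Gnat1 on chromosome 9 and Gnai3 beside Gnat2 on chromosome 3. The sensory partner of each pair had at most 24 counts in either tissue, whereas Gnai1, Gnai2 and Gnai3 summed to 58700, 2872 and 3106 counts in all dentate gyrus libraries and 88784, 2771 and 1778 in both cortex libraries. In the same way Gnaq lies beside Gna14 on chromosome 19 and Gna11 beside Gna15 on chromosome 10, and Gna14 and Gna15 had 0 counts in dentate gyrus against 13 and 0 in cortex.

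Summed over a family, the direction of the G gamma total depended on the scale. Gamma subunit RNA summed to 2311, 2109 and 2176 CPM in dentate gyrus against 1671.5 and 1717 CPM in cortex, and to 632, 596 and 600.5 CPM per kb in dentate gyrus against 770.0 and 766 CPM per kb in cortex. Gng3 is the shorter of the leading gamma genes, with 1643 exon bases, and Gng2 has 4390. The alpha total was 796 ± 66.1 CPM per kb in dentate gyrus (SD, n = 3) and 1148 ± 65.4 in cortex (n = 2), the beta total 207 ± 12.9 and 251.5 ± 5.60, and the RGS total 248 ± 15.7 and 469 ± 20.2. These sums are given without a test.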
